A study of Mus musculus with 3 samples.

Results

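The main olfactory bulb is built in rings, and the 2 innermost annotated pairs of regions were set against each other here: the granule cell layers and the core they enclose. The granule pool joined all spots annotated as external or internal granule cell layer (GCL-E and GCL-I in the deposited annotation). The core pool joined all spots annotated as ependymal cell zone (E) or rostral migratory system (RMS). Together they held 668575 of the 2250425 spots under tissue, 271593 in the granule pool and 396982 in the core pool. Spots were assigned to a region by their pixel position, and all counts of a gene over the spots of a pool were summed within a section, which gave 6 sums.

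The sums came from high-density spatial transcriptomics arrays, on which poly(A) RNA of a tissue section is captured on small barcoded spots. A spot is a small piece of tissue that may hold part of a cell or pieces of several. There were 3 coronal sections from C57BL/6J mice aged 12 weeks, and the labels name no treatment. Whether the sections came from 1 animal or several is left unsaid by the labels, so p-values do not measure spread between animals. The p-values of single genes combine a gene's own spread over the 3 sections with a spread shared across genes. A small p-value can therefore go with section ratios that differ widely. Both pools of a section came from the same tissue on the same array and were compared as a pair.

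Granule cells are small inhibitory interneurons without an axon. They release GABA onto the dendrites of mitral and tufted cells, the output neurons of the bulb, and many of them are replaced throughout adult life. Their precursors, the neuroblasts, reach the bulb through the rostral migratory stream, which runs into its core and is accompanied by astrocytes. Myelinated axons also run through the deep bulb.

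The granule pool held 62244, 81829 and 70954 counts in sections 1, 2 and 3, and the core pool held 104364, 92478 and 61151. Counts per spot with at least 1 count were 3.99 ± 0.658 in the granule pool and 3.61 ± 0.400 in the core pool (SD, n = 3 sections). The log2 ratio was 0.14 ± 0.10 and the exact sign-flip permutation p was 0.25, the smallest that 3 pairs can give. The rostral migratory system made up 15.6%, 5.58% and 2.38% of the core counts in the 3 sections, so the core pool consisted mostly of the ependymal cell zone. Section 1 stood apart from the other two. Genes nearly identical to mitochondrial transcripts took 1.34% of its granule counts, against 3.52% and 3.80% in sections 2 and 3. Here CPM is the count of a gene scaled to the same total in every pool and section. Results that rest on section 1 are given with and without it.

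Of 15905 genes with counts in the pools, 1850 had enough counts to be tested, and 21 of these differed between the pools (1.14% of the tested genes, edgeR quasi-likelihood test with section as a block, adjusted p under 0.05). There were 6 genes higher in the granule layers (0.324%) and 15 higher in the core (0.811%). The 6 were *Gad1*, *Atp1b1*, *Cplx1*, *Inpp5j*, *Selenom* and *Spred2*. The 15 included the astrocyte genes *Cst3*, *Slc1a3*, *Apoe*, *Clu*, *Ndrg2* and *Plpp3*, the myelin gene *Mbp*, the neuronal or developmental genes *Nrgn*, *Nnat*, *Ccdc88a* and *Sp9*, and the mitochondria-like genes *Gm10925*, *Gm28437* and *Gm29216*. The median fitted log2 fold change of all tested genes was -0.00. In summed tissue, fewer cells of a type and less RNA per cell cannot be told apart. With a section left out, 12, 3 and 13 genes passed (without section 1, 2 and 3), and *Cst3*, *Gad1* and *Nrgn* were the genes that passed in all 3 of these fits. DESeq2 called 0 genes (16 at unadjusted p under 0.05), and edgeR without the section block called 0 (32 at unadjusted p under 0.05). All 21 genes kept their direction in both. Each of them already had 1 direction in all 3 sections, so a refit of the same sums could hardly change it. The kept direction is no separate support.

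**Figure D1:**
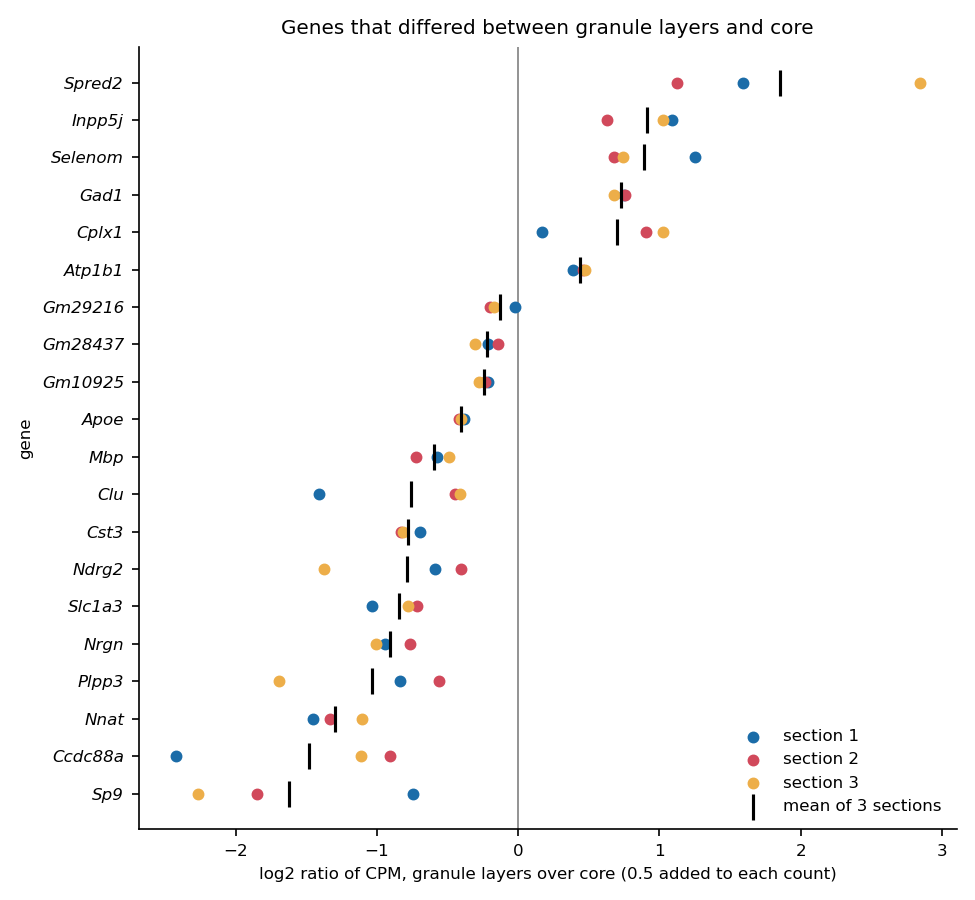
Log2 ratio of CPM in the granule layers over the core (x axis, 0.5 added to each count) for the genes named here that passed the test, with 1 point per section and a bar at the mean of the 3 sections. Each point lies on its gene's side of 0, and the 3 sections lie close together for *Gad1*, *Atp1b1*, *Apoe* and *Cst3* and far apart for *Spred2*, *Ccdc88a* and *Sp9*.

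Promoter sequence of 3 of these genes is printed, chosen after their values were seen, to show both directions with windows that overlapped no annotated exon. The windows of *Ccdc88a* and *Selenom* and some of the windows of *Apoe* also overlapped none and are not printed. *Atp1b1* was higher in the granule layers, and *Slc1a3* and *Plpp3* were higher in the core. Each window is the 250 bases before the RefSeq start site, on the gene's own strand from 5′ to 3′ (GRCm38.p6). The windows are chr1:164458356-164458605 on the minus strand for *Atp1b1*, chr15:8710808-8711057 on the minus strand for *Slc1a3* and chr4:105157097-105157346 on the plus strand for *Plpp3*. Capitals mark matches on either strand to any of 4 short motifs, which may overlap. The first, GGGCGG, is known as the core of the GC box bound by Sp family factors. The next, CCAAT, is the box of that name bound by NF-Y. A run of TATAAA resembles the TATA box of many promoters. The last, TAATTA, is a core recognised by homeodomain factors.
Atp1b1: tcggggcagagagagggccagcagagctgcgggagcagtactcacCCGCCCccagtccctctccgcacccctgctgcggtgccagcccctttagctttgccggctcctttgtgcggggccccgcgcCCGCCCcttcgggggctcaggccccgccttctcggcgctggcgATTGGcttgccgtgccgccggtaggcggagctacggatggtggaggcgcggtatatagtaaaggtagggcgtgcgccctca
Slc1a3: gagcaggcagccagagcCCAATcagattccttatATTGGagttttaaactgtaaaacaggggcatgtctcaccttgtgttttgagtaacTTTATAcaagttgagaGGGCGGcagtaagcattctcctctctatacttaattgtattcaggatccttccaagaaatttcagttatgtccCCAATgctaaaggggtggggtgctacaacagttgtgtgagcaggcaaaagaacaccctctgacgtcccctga
Plpp3: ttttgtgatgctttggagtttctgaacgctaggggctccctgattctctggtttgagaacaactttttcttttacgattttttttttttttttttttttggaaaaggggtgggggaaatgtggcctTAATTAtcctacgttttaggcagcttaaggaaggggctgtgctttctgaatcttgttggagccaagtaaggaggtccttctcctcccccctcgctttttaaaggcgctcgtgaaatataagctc
The *Atp1b1* window held 3 matches, the *Slc1a3* window 5 and the *Plpp3* window 1. Of the 21 genes, 14 had a window in the RefSeq table, and the first listed window of each was searched. GGGCGG was in 10 of these 14, against 32.9% of 27025 windows of all genes, tested or not. The share among the 1850 tested genes was not computed, so these contrasts cannot be read as a trait of the called genes. CCAAT was in 4 of 14 against 34.5%, TATAAA in 4 of 14 against 13.0%, and TAATTA in 1 of 14 against 4.90%. A match describes the letters of the window and shows no binding.

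*Gad1*, which encodes an enzyme that makes GABA, was higher in the granule layers of every section. Its level in the granule pool was 3647, 2811 and 2678 CPM in sections 1, 2 and 3, and in the core pool 2166, 1665 and 1668 CPM. The groups did not overlap. That held for 126 of the 1850 tested genes (6.81%), far more than were called, so a lack of overlap, here and below, is a description only. The ratio of means was 1.66 and the log2 ratio 0.73 ± 0.04 (SD, n = 3), with an edgeR adjusted p of 1.39e-12. With the section left out in turn, the fitted log2 fold change stayed between 0.71 and 0.72. *Gad1* lies at chr2:70553072-70602014 on the plus strand (mm10) and overlaps *Gad1os* on the other strand, and whether the counting used strand is not stated in the labels or files.

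*Atp1b1*, a subunit of the sodium pump, stood at 3936, 3568 and 3411 CPM in the granule layers and at 3009, 2595 and 2453 CPM in the core. All granule values lay above all core values. The log2 ratio was 0.44 ± 0.05 (SD, n = 3) with an edgeR adjusted p of 2.55e-05, and the adjusted p was 0.0989 without section 2. *Cplx1*, which encodes complexin, a regulator of vesicle fusion, was at 1398, 978 and 874 CPM against 1246, 519 and 425 CPM. Its difference was small in section 1 and larger in the others, with log2 ratios of 0.17, 0.91 and 1.02. The edgeR adjusted p of *Cplx1* was 0.0369, and without section 1 the fitted log2 fold change went from 0.54 to 0.94 with an adjusted p of 0.00238. It did not pass without section 2 (fitted log2 fold change 0.43, edgeR adjusted p 0.575) or without section 3 (0.42, 0.429).

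The other genes of the granule side rested on fewer counts. *Inpp5j*, an inositol polyphosphate 5-phosphatase, was at 819, 403 and 409 CPM in the granule layers and 383, 260 and 196 CPM in the core (log2 ratio 0.91 ± 0.25, edgeR adjusted p 0.00987). *Selenom*, a selenoprotein of the endoplasmic reticulum, was at 755, 367 and 226 CPM against 316, 227 and 131 CPM (log2 ratio 0.89 ± 0.31, edgeR adjusted p 0.0237). *Spred2*, an inhibitor of Ras and MAP kinase signalling, had 13, 14 and 12 counts in the granule layers against 7, 7 and 1 in the core, and its edgeR adjusted p was 0.0444. None of these 3 passed when any 1 of the sections was left out (adjusted p 0.0581 to 0.595). Without section 3, whose core held 1 count of *Spred2*, its fitted log2 fold change went from 1.65 to 1.36.

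The astrocyte side of the comparison was led by *Cst3*, the protease inhibitor cystatin C, which astrocytes and microglia both make. It stood at 2619, 1540 and 1438 CPM in the granule layers and at 4245, 2747 and 2535 CPM in the core. Each core value exceeded its own section's granule value, but the groups overlapped because section 1 was higher in both pools. The ratio of means was 1.70 and the log2 ratio -0.78 ± 0.08 (SD, n = 3), with an edgeR adjusted p of 1.31e-16. *Slc1a3*, the glutamate transporter GLAST of astrocytes and radial glia, was at 177, 782 and 846 CPM against 374, 1287 and 1455 CPM. Section 1 was far lower than the others in both pools, and the ratio kept its size there (log2 ratios -1.03, -0.71 and -0.78, edgeR adjusted p 2.29e-04, and 0.0989 without section 2).

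*Apoe*, the lipid carrier of astrocytes, was at 2442, 1589 and 1889 CPM in the granule layers and 3191, 2130 and 2502 CPM in the core. Its log2 ratio of -0.40 ± 0.02 (SD, n = 3) was nearly the same in all sections, with an edgeR adjusted p of 5.35e-04. It was 0.0575 without section 1 and 0.244 without section 2. *Clu*, the secreted chaperone clusterin, was at 257, 220 and 282 CPM against 700, 303 and 376 CPM. The difference was largest in section 1: the edgeR adjusted p was 0.0444 with all sections and 0.751, 0.0989 and 0.106 without sections 1, 2 and 3, and without section 1 the fitted log2 fold change went from -0.87 to -0.45. *Ndrg2*, a gene marking mature astrocytes, was at 466, 440 and 324 CPM against 709, 584 and 850 CPM (edgeR adjusted p 0.00952). *Plpp3*, a lipid phosphatase of astrocytes, had 9, 25 and 9 counts against 28, 42 and 26, with an edgeR adjusted p of 0.0444. *Ndrg2* did not pass without section 2 (edgeR adjusted p 0.0581) or section 3 (0.537), and *Plpp3* did not pass with any 1 section left out (0.0989 to 0.576).

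*Mbp*, which encodes myelin basic protein, was higher in the core. It stood at 2153, 1039 and 1184 CPM in the granule layers and at 3220, 1719 and 1668 CPM in the core. The core was higher in all 3 sections, and the groups overlapped through the high granule value of section 1. The ratio of means was 1.51 and the log2 ratio -0.60 ± 0.12 (SD, n = 3), with an edgeR adjusted p of 7.61e-07, and 0.0622 without section 2.

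*Nrgn*, which encodes neurogranin, a postsynaptic protein that binds calmodulin, stood at 578, 403 and 437 CPM in the granule layers against 1121, 692 and 883 CPM in the core. The groups did not overlap, the ratio of means was 1.90, and the log2 ratio was -0.90 ± 0.12 (SD, n = 3) with an edgeR adjusted p of 5.18e-05. *Nnat*, the imprinted gene neuronatin, was at 145, 147 and 141 CPM against 412, 378 and 311 CPM (log2 ratio -1.30 ± 0.17, edgeR adjusted p 9.58e-04, and 0.0717 and 0.0818 without sections 1 and 2). *Nnat* lies at chr2:157560078-157562522 on the plus strand (mm10) within the bounds of *Blcap* on the other strand, so counts of this pair could be mixed if strand was not used.

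*Sp9* encodes a zinc finger transcription factor of developing interneurons and had 10, 6 and 3 counts in the granule layers against 29, 26 and 14 in the core. These are 161, 73.3 and 42.3 CPM against 278, 281 and 229 CPM, with no overlap, and the edgeR adjusted p was 0.00684. *Ccdc88a*, which encodes girdin, an actin-binding protein of migrating neuroblasts, had 1, 28 and 26 counts against 13, 60 and 49. It was low in both pools of section 1, and without that section its fitted log2 fold change was -1.03 with an edgeR adjusted p of 0.00417. *Ccdc88a* did not pass without section 2 (edgeR adjusted p 0.0581) or section 3 (0.167), and neither did *Sp9* (0.244 and 0.164). *Gm10925*, *Gm28437* and *Gm29216* are annotated as unprocessed pseudogenes on chromosome 1 and are 100%, 100% and 99.8% identical to *mt-Atp6*, *mt-Co3* and *mt-Co1*, so their reads cannot be told apart from mitochondrial RNA. Their core to granule ratios of means were 1.19, 1.17 and 1.11 (edgeR adjusted p 6.37e-07, 0.00598 and 0.0459). *Gm10925* did not pass without section 2 (edgeR adjusted p 0.111), and the other two did not pass with any 1 section left out (0.105 to 0.872).

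**Figure D2:**
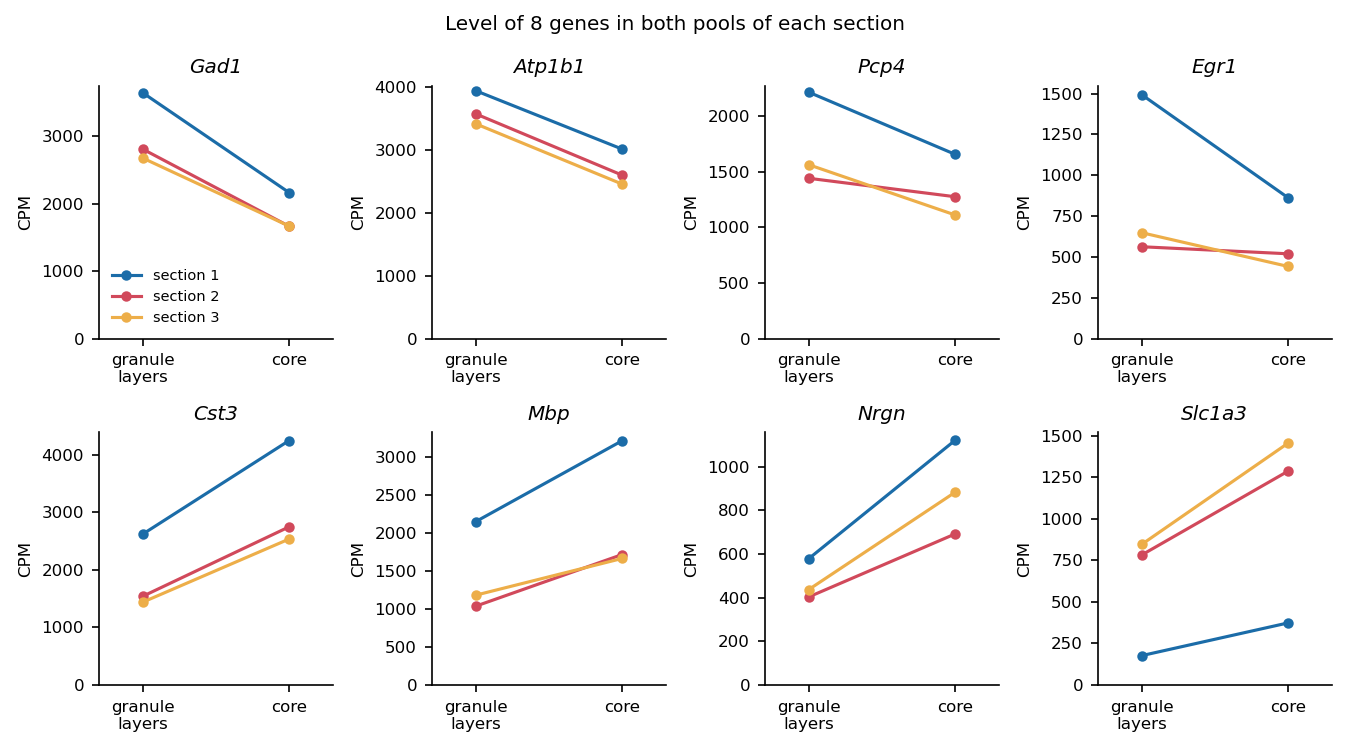
CPM of 8 genes in the granule layers and the core (y axis from 0), with 1 line per section joining its pools. *Gad1*, *Atp1b1*, *Pcp4* and *Egr1* slope down toward the core in all 3 sections, although *Pcp4* and *Egr1* did not pass the test, and *Cst3*, *Mbp*, *Nrgn* and *Slc1a3* slope up.

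Of the 3 genes given as markers of the comparison, *Mbp* passed and the other 2 did not. *Pcp4*, a small calmodulin-binding protein of granule cells, was at 2217, 1442 and 1564 CPM in the granule layers against 1658, 1276 and 1112 CPM in the core. It was higher in the granule layers in 3 of 3 sections (log2 ratio 0.36 ± 0.16), but its edgeR adjusted p was 0.203. *Egr1*, an activity-dependent transcription factor, was at 1494, 562 and 648 CPM against 862, 519 and 441 CPM. It too was higher in 3 of 3 sections (log2 ratio 0.48 ± 0.34) with an edgeR adjusted p of 0.130, and the smallest difference was in section 2, where it was 0.12 on the log2 scale.

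The 4 component regions showed where in each pool these levels lay. *Gad1* averaged 2779 ± 269 CPM in the external and 3076 ± 710 CPM in the internal granule cell layer, 1897 ± 363 CPM in the ependymal cell zone and 1131 ± 385 CPM in the rostral migratory system (SD, n = 3). *Cst3* averaged 2039 ± 891, 1830 ± 606, 2901 ± 632 and 6148 ± 1483 CPM in the same order, and *Mbp* averaged 1681 ± 1037, 1407 ± 517, 1962 ± 577 and 4855 ± 2531 CPM. The rostral migratory system was thus the highest region for *Cst3* and *Mbp* and the lowest for *Gad1*, but its 16285, 5162 and 1456 counts in sections 1, 2 and 3 left single counts behind some values. *Nnat* averaged 88.1 ± 39.1 and 162 ± 17.1 CPM in the granule layers, 344 ± 36.6 CPM in the ependymal cell zone and 648 ± 58.0 CPM in the rostral migratory system, the last from 11, 3 and 1 counts. *Nrgn* did not follow that order, with 909 ± 247 CPM in the ependymal cell zone and 694 ± 613 CPM in the rostral migratory system.

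With the ependymal cell zone alone as the core, 10 genes passed, all of them among the 21. *Cst3* (fitted log2 fold change -0.66, edgeR adjusted p 5.51e-08), *Gad1* (0.67, 2.83e-08), *Nrgn* (-0.94, 2.15e-04) and *Mbp* (-0.46, 0.0172) were among them. *Apoe* had an edgeR adjusted p of 0.0629 in that fit. The pooled core gave -0.63 for *Mbp* and -0.94 for *Nrgn*.

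Levels were also read by distance from the border between the pools, in pixels of the section image (8.51 to 8.56 pixels per array column). In the core, *Gad1* averaged 2397 ± 400 CPM within 100 pixels of the granule layers, 1785 ± 330 CPM at 100 to 200, 1692 ± 617 CPM at 200 to 400 and 1233 ± 141 CPM beyond 400 (SD, n = 3). In the granule layers it averaged 2915 ± 540, 3254 ± 615 and 2925 ± 525 CPM at 0 to 100, 100 to 200 and over 200 pixels. *Atp1b1* in the core went from 3398 ± 969 CPM nearest the border to 2936 ± 328, 2196 ± 238 and 1918 ± 815 CPM. On either side of the border, *Gad1* was at 3474, 2876 and 2395 CPM in the granule spots and 2859, 2145 and 2188 CPM in the core spots, lower in the core in 3 of 3 sections. Both genes had their lowest mean in the deep core.

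*Cst3* ran the other way, from 2537 ± 197 CPM in the core next to the border to 2665 ± 873, 3081 ± 764 and 5395 ± 1801 CPM, against 2077 ± 804 CPM in the adjoining granule spots. *Mbp* was at 1728 ± 914, 1530 ± 314, 2382 ± 233 and 3417 ± 1669 CPM over the same core steps. *Nrgn* was at 622 ± 276 CPM in the first 100 pixels, close to the 574 ± 66.8 CPM of the adjoining granule spots, and at 1020 ± 269, 1005 ± 233 and 1200 ± 275 CPM further in. *Egr1* averaged 834 ± 284, 641 ± 307, 457 ± 131 and 357 ± 487 CPM, with 0 counts beyond 400 pixels in section 3. The rostral migratory system supplied 44.5%, 41.0% and 12.3% of the counts beyond 400 pixels in sections 1, 2 and 3, and none within 200 pixels. These profiles are a description and no step was tested.

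**Figure D3:**
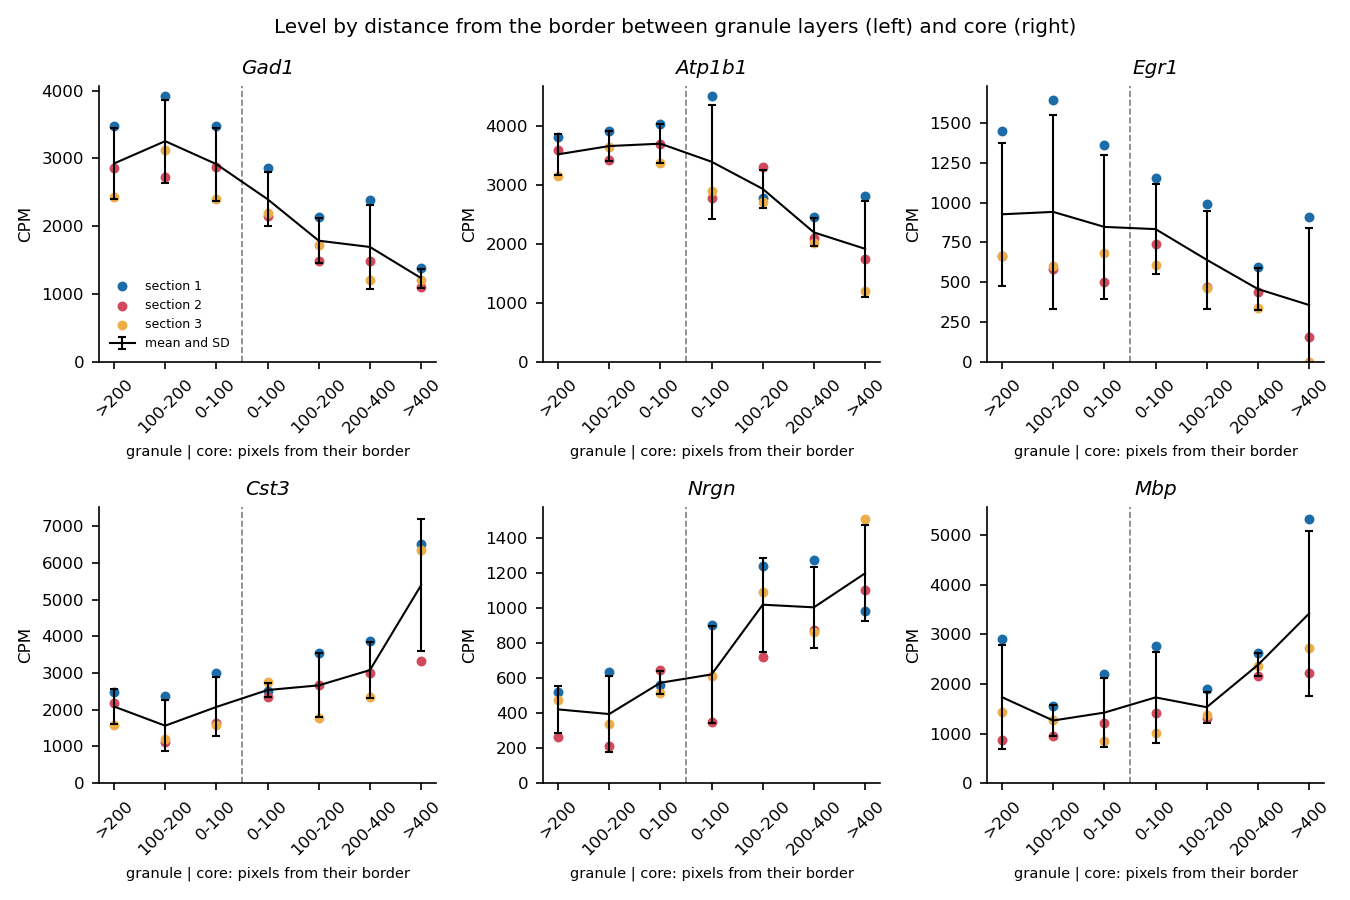
CPM of 6 genes (y axis) by distance from the border between the pools in pixels (x axis), from the outer granule layers at the left across the dashed border to the deep core at the right. Points are sections and the black line joins means with SD over 3 sections. *Gad1*, *Atp1b1* and *Egr1* are lowest beyond 400 pixels in the core, and *Cst3*, *Nrgn* and *Mbp* are highest there.

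Gene lists give the same pools by cell type and function. They were chosen with earlier results of these data known, and each is described by its counts beside the 1.14% of all tested genes that passed. Of 16 tested granule cell genes, 1 rose in the granule layers (*Gad1*), 0 rose in the core, and the median fitted log2 fold change was 0.30 with 12 of 16 above 0. *Meis2*, a homeodomain factor of granule cells, was at 434, 1576 and 1452 CPM in the granule layers against 383, 1395 and 997 CPM in the core and did not pass. The summed level of the list was 12374 to 13319 CPM in the granule pools and 9730 to 10532 CPM in the core pools. Of 12 tested genes of GABA synthesis, transport and reception, *Gad1* alone passed and the median was 0.12. *Gad2*, which encodes the other GABA-making enzyme, had a fitted log2 fold change of 0.39, and the vesicular GABA transporter *Slc32a1* had 0.38, both without passing.

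Of 7 tested genes of myelinating oligodendrocytes, 2 rose in the core, *Mbp* among them, all 7 had a fitted value below 0, and the median was -0.63. The list summed to 3385 to 4868 CPM in the granule pools and 4710 to 8547 CPM in the core pools. *Mobp*, *Mal* and *Car2* had fitted log2 fold changes of -0.57, -0.98 and -0.82 and did not pass with all spots of the pools. With border spots left out, a setting that tested fewer genes, *Mobp* passed (-1.15, edgeR adjusted p 0.0156). Counts of untested genes, here and below, are unscaled sums over the 3 sections. The core pools held more counts in sections 1 and 2 and more in total, so a slightly higher core count need not mean a higher level. Myelin genes with too few counts for the test included *Cnp* with 32 counts in the granule pools and 72 in the core pools, *Mag* with 17 and 27, and *Mog* with 6 and 13. Of 14 tested astrocyte and neural stem cell genes, 4 rose in the core (*Cst3*, *Slc1a3*, *Apoe* and *Clu*), all 14 were below 0, and the median was -0.34. The summed level was 11487 to 12529 CPM in the granule pools and 15705 to 16296 CPM in the core pools. *Gfap*, the intermediate filament of astrocytes, had 16 and 24 counts and *Aqp4*, their water channel, 29 and 32, too few to test. The nearly equal *Aqp4* pair gives no higher level in the core.

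Of 12 tested neuroblast and immature neuron genes, 1 rose in the core (*Sp9*), 0 rose in the granule layers, and the median was -0.14. *Dcx*, which marks migrating neuroblasts, had a fitted log2 fold change of 0.13, *Dlx1* 0.04 and *Robo2* -0.61, none past the threshold. Of the 12 genes of cell division, none had enough counts to be tested, and *Pcna* had 13 counts in the granule pools and 18 in the core pools. The core pools, which include the labelled ependymal cell zone, held few counts of several ependymal genes. *Foxj1* had 3 counts in the granule pools and 1 in the core pools, *Rarres2* 1 and 4, and *Rsph1* 0 and 2. Other untested members had more, with *Pltp* at 16 and 16 and *Dnah11* at 9 and 14. Microglial genes other than *Cst3* were too low to test and did not all lean one way: *C1qb* had 5 counts in the granule pools and 28 in the core pools and *Tyrobp* 2 and 14, while *Csf1r* had 17 and 12, *P2ry12* 10 and 8 and *Cx3cr1* 6 and 6. The 14 microglial genes, *Cst3* included, summed to 1663 to 3085 CPM in the granule pools and 2976 to 5088 CPM in the core pools. Without *Cst3* the list summed to 466, 354 and 226 CPM in the granule pools against 843, 260 and 442 CPM in the core pools, lower in the core of section 2, and the part of these cells in the *Cst3* result was not tested.

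Of 16 tested synaptic vesicle genes, 1 rose in the granule layers (*Cplx1*), 15 of 16 had a fitted value above 0, and the median was 0.25. *Snap25*, a membrane fusion protein, had 0.07, *Vamp2* 0.32 and *Syngr1* 0.75, none past the threshold. *Cplx2*, the other complexin measured, had -0.69. Of 18 tested calmodulin-related genes, *Nrgn* alone passed, in the core, and the median was -0.08. Of 6 tested immediate early genes, 0 passed, and the median was 0.35, with *Fos* at 0.62, *Nr4a1* at 0.40, *Jund* at 0.03 and *Homer1* at -0.19. *Fos* and *Nr4a1* were each higher in the granule layers in only 2 of 3 sections. Of 73 tested cytosolic ribosomal protein genes, 0 passed, 60 were below 0 and the median was -0.22. Of 66 tested nuclear genes of the respiratory chain, 0 passed, 42 were above 0 and the median was 0.12.

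Other lists bear on cells that could lie in or near the pools. Of 5 tested genes of olfactory ensheathing glia, 1 rose in the core and the median was -0.33. That gene is also counted in the oligodendrocyte list, so it is not a separate result. Mitral and tufted cell genes (7 tested), endothelial and mural genes (3 tested), meningeal genes (2 tested), haemoglobin genes (2 tested) and glutamate receptor and postsynaptic genes (19 tested) held none that passed. The haemoglobin gene *Hbb-bs* was at 273, 379 and 380 CPM in the granule layers and 297, 487 and 736 CPM in the core. Of the genes of periglomerular interneurons, *Cplx1*, also in the vesicle list, passed in the granule layers, while *Calb2* and *Cck* did not.

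**Figure D4:**
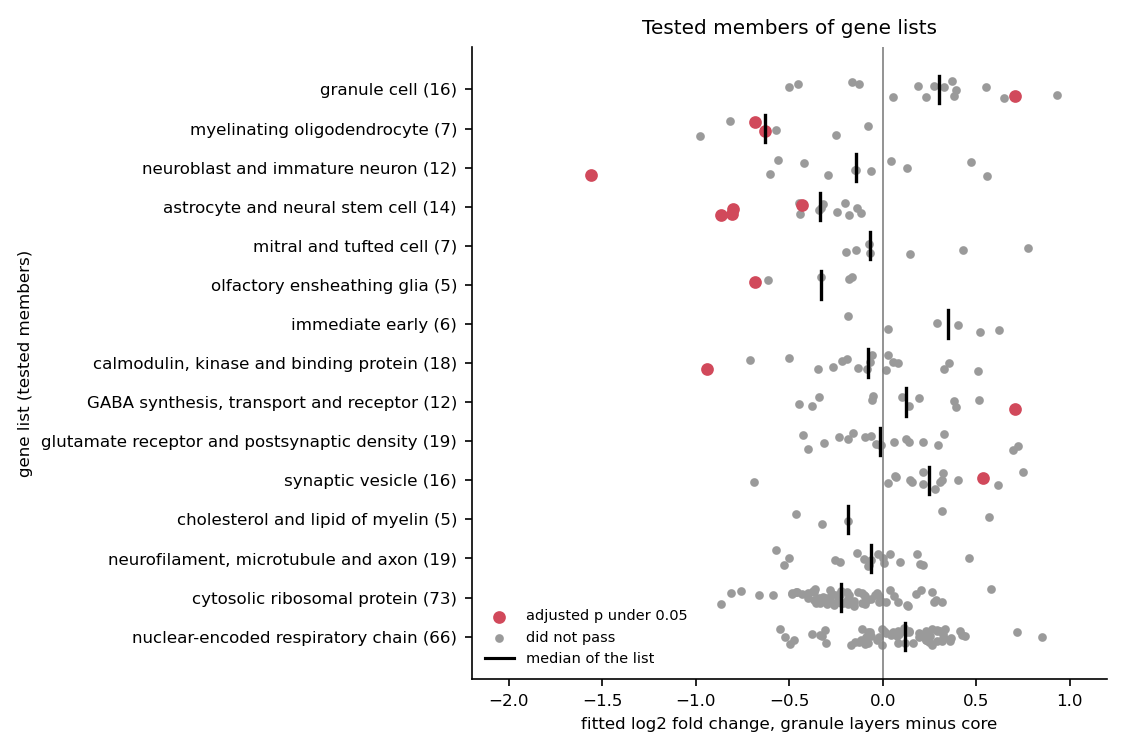
Fitted log2 fold change, granule layers minus core (x axis), of the tested members of each gene list with at least 5 of them (rows, number tested in brackets). Red points passed the test, grey points did not, and the black bar is the median of the list. All members of the oligodendrocyte and astrocyte lists lie below 0, with medians of -0.63 and -0.34, and the granule cell list has a median of 0.30.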

How the data were processed

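Each of 3 sections is 1 sample. The authors deposited raw transcript counts per spot and gene, and a table of spot positions and regions, whose whole numbers and differing totals (344372, 650890 and 505710) fit unnormalized counts. Not given in the sources used here: whether molecular identifiers were counted, the aligner, the annotation and how regions were drawn. Per the submitters' processing notes, mm10 was the genome build. A spot took the region of its pixel position. Joined by name, 97.1% of the entries of sections 2 and 3 fell in the same region. Counts without a gene name (0.0325%, 0.0764% and 0.0801%) were left out.

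Counts were summed per section and pool and tested with edgeR 4.0.16 (quasi-likelihood test, TMM scaling, filterByExpr with a minimum count of 10, section as a block, R 4.3.3, Benjamini-Hochberg adjustment over 1850 genes, threshold 0.05). The pools of a section share its tissue: their deviations from pool means correlated at 0.765, 0.514 and 0.430. Across sections the mean was -0.243. Deviations from a pool mean cancel out over the sections, so positive values within sections force a negative one across them. The -0.243 is therefore no baseline. Precision is limited by depth, and CPM intervals are not given. The members and lists were chosen with earlier results of these data known. Named genes were up to 12 with the largest fold change in each direction with at least 30 counts in the higher pool, the 3 given markers and 2 to 4 members of each list. Some genes that this rule takes up were left out of the text. The other called genes, and untested or further list members, were named after their values were seen. On simulated counts of 1850 genes, 78% of genes changed by a fold of 2 and 100% of those changed by a fold of 4 were recovered, and 12 of 190 calls were false. The simulation changed 100 genes per fold, far more than were called in the data. It drew counts with the edgeR dispersion trend and the same pool ratio in every section. It therefore cannot show whether that dispersion is right, and these shares hold only if it is. Mitochondria-like genes were found with blastn 2.17.0 (at least 95% identity over 100 bases). Positions are from GENCODE M21. Of 15905 symbols, 15872 were found there. DESeq2 1.42.0, Python 3.11.15, scipy 1.17.1 and matplotlib 3.10.9 were also used.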

Additional observations from a re-analysis of the deposited data

How the results depend on the processing

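The count of 21 genes (6 higher in the granule layers, 15 in the core) was 11 (3 and 8) with RLE scaling, 11 (2 and 9) without a filter on low counts and 10 (2 and 8) with all layers in 1 fit. It was 0 (0 and 0) with DESeq2 and with no replicate block. The gene-wise dispersion estimate of DESeq2 was at its floor for 89.2% of genes, and the final one it tests with had a median of 0.147, against 0.0112 for the edgeR trend. With the ependymal cell zone alone as core it was 10 (3 and 7), with the rostral migratory system alone 0 (0 and 0), with the external granule layer alone 4 (1 and 3), with the internal layer alone 11 (2 and 9), with border spots left out 10 (2 and 8), and with the internal layer against the ependymal zone 9 (2 and 7), a setting chosen after seeing the data. Leaving out border spots kept only 1, 25 and 1177 spots of the external granule layer in sections 1, 2 and 3. The granule side of that fit was thus nearly the internal layer alone. It tested 749 genes, and 8 of its 10 were among the 21. With 1 section left out the counts ran from 3 to 13 (1 to 4 in the granule layers, 2 to 11 in the core). Fewer genes were tested in several of these fits, and otherwise the cause was not tested. Library sizes alone gave 19, joining by name 19, and leaving out mitochondria-like genes 16.

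All 21 genes kept their direction in every setting in which they were tested, except 3 with the rostral migratory system alone: *Gm29216* at 0.17, *Gm28437* at 0.27 and *Gm10925* at 0.10. Each of the 21 had the same direction in all 3 sections. Settings that refit the same sums or leave out a section could therefore hardly change it. The log2 ratio of counts per spot was 0.26 with spots without counts included, and 0.10 to 0.19 with 1 section left out. That of the share of counts was -0.24, -1.37 with border spots left out, and -0.46 to 0.02 with 1 section left out. At this depth, most genes of the bulb had too few counts to be tested.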
